A study of Homo sapiens with 2 samples.

Results

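FGFR3, WHSC1 (the file's name for NSD2) and 6 further genes of the end of the short arm of chromosome 4, LETM1, TACC3, TMEM129, SLBP, FGFRL1 and CTBP1, were measured in 2 RNA-seq libraries. The 8 genes of 18930 in the table were found by symbol. They had been chosen by their place around the chromosome 4 breakpoint of a myeloma translocation and with the difference of FGFR3 and WHSC1 between these libraries already known, so that their differences are given as a description, with no test. All 8 had counts and passed a minimum of 10 reads over both libraries.

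The study compared melanoma cells made resistant to dacarbazine (DTIC), a drug that alkylates DNA, with their wild-type control. The labels give 1 library of group DR and 1 library of group WT. For both, the labels give the established melanoma line A375, grown in DMEM with serum, and 105 days of the drug, spelled DITC there, the WT library included. Each count column was matched to a sample by its description. The descriptions of the 2 samples differ by a single punctuation mark and neither says wild type, so every direction below rests on that match. The names DR library and WT library stand for these labels only. The libraries held 54878310 (DR) and 35294629 (WT) reads assigned to genes, and 17841 and 17336 genes had at least 1 read. Levels are counts per 1000000 reads (CPM) scaled by edgeR's TMM method, and levels of different genes are compared only as CPM per kilobase of the gene length in the file. With 1 library per group there is no replicate check. The intervals given are 95% intervals of read counting only, and differences are between the 2 libraries, not between the conditions. In bulk RNA, fewer cells expressing a gene and less of its RNA per cell cannot be told apart.

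The labelled cell type was checked against marker genes. Of 10 melanocyte markers listed, 8 had counts and 7 enough reads, and these 7 summed to 61.6 CPM in the DR library and 65.6 CPM in the WT library. MITF and GPNMB, which other cells also express, made up most of this. SOX10, a factor that defines the melanocytic lineage, had 3 and 0 reads, the pigment enzymes DCT and TYRP1 13 and 9 and 0 and 17, and EDNRB, a receptor of pigment cells, 12 and 26. The pigment cell proteins MLANA and PMEL had 123 and 89 and 248 and 82 reads. The 10 plasma cell markers, among them the transcription factors IRF4, PRDM1, XBP1 and POU2AF1 and the surface proteins SDC1, CD38, TNFRSF17 and SLAMF7, had counts in both libraries and summed to 5189.8 and 6255.6 CPM. JCHAIN, the chain that joins immunoglobulin units, stood at 2012.4 and 2916.7 CPM. MZB1, a chaperone of immunoglobulin assembly, was the sole one past 2-fold, at 451.1 and 224.2 CPM, and was not past it with a pseudocount of 5 CPM. The markers thus go against the labelled cell type in both libraries. The median log2 fold change of DR over WT was -0.13 for the plasma cell markers and -0.17 for the melanocyte markers, and their part in the differences below was not tested.

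FGFR3 is a receptor tyrosine kinase that binds fibroblast growth factors at the cell surface and signals through RAS, the MAP kinases and phospholipase C. NSD2, still named WHSC1 in the file, adds methyl groups to lysine 36 of histone H3. In a translocation between chromosomes 4 and 14 found in some multiple myelomas, the break falls near these genes and places them under enhancers of the immunoglobulin heavy chain locus. FGFR3, on the telomere side of the break, then moves to the derivative of chromosome 14, while WHSC1 stays on that of chromosome 4, and FGFR3 RNA is lacking in some of the tumours that carry the translocation. Counts per gene cannot show a chromosome break, and whether these cells carry one was not tested.

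The 250 bases before the RefSeq start of FGFR3 and of NSD2 are shown because these are the only members past the 2-fold threshold used here. They come from RefSeq (GRCh38.p14), both on the plus strand. The submitters' processing notes name hg19, so the positions are those of RefSeq and not of the counted reads. Capitals mark GC boxes, the letters GGGCGG or their reverse complement CCGCCC, and neighbouring boxes can overlap.
FGFR3, chr4:1793043-1793292: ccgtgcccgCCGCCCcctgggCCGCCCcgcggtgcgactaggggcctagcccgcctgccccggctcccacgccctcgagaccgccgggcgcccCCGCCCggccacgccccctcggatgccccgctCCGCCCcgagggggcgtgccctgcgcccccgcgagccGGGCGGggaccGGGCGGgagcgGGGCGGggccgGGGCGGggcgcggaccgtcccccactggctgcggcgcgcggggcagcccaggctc
NSD2, chr4:1871143-1871392: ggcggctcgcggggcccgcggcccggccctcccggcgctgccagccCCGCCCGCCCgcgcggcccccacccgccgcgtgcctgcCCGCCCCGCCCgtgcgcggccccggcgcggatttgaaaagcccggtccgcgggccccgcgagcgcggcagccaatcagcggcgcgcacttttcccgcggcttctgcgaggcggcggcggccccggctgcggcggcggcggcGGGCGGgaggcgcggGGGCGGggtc

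The FGFR3 window held 8 GC boxes and the NSD2 window 6, while 42.6% of the 35116 RefSeq promoter windows of this length held at least 1. The share of windows with as many boxes is not given. G and C made up 86.8% of the bases of the FGFR3 window and 86.0% of those of the NSD2 window. CpG pairs numbered 40 and 50, against a median of 11 over all windows, and 2.16% and 0.148% of windows held as many. The letters TATAAA or TTTATA were in neither window and in 10.7% of all windows. The table of windows held 6 of the 8 genes and lacked LETM1 and TMEM129. The counts give no start site, so that which promoter made the RNA was not measured.

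FGFR3 (NCBI Gene 2261) had 187 reads in the DR library and 45402 in the WT library, which was 3.37 and 1302.4 CPM. Its reads made up 0.129% of all reads of the WT library. The log2 fold change of DR over WT, taken here of CPM plus 0.5, was -8.40 (counting interval -8.58 to -8.21). The level was 387.0-fold higher in the WT library, and the ratio of DR to WT had a counting interval of 0.00223 to 0.00298. Per kilobase, FGFR3 took rank 175 among 16210 tested genes in the WT library, at 302.7 CPM per kilobase, and 12346 in the DR library, at 0.782. The 187 reads lie far above the floor of 3 reads used for genes with almost no reads, so FGFR3 was low but detected in the DR library.

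WHSC1 (NCBI Gene 7468) had 13771.77 estimated reads in the DR library and 32192.2 in the WT library, which was 247.9 and 923.4 CPM. It was 3.73-fold higher in the WT library (log2 fold change -1.90, counting interval -1.92 to -1.87). Unlike FGFR3, WHSC1 stayed abundant in both libraries. Per kilobase its level was 34.6 in the DR library and 128.8 in the WT library, at percentiles 85.4 and 97.0 of the genes tested. FGFR3 stood at 2.35 times the level of WHSC1 per kilobase in the WT library and at 0.0226 times its level in the DR library.

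FGFR3 and WHSC1 were the 2 of the 8 members at least 2-fold lower in the DR library, and 0 were at least 2-fold higher. Over all genes tested 4.16% were at least 2-fold lower (674 genes), 7.48% at least 2-fold higher (1212 genes) and 11.6% either. The members were chosen on this contrast, so nothing is read from their count. WHSC1 was the member just inside the threshold (-1.90) and FGFRL1 the one just outside it (-0.90). Ordered from the most negative, FGFR3 took place 2 and WHSC1 place 205 among the log2 fold changes of the 16210 genes.

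**Figure D1:**
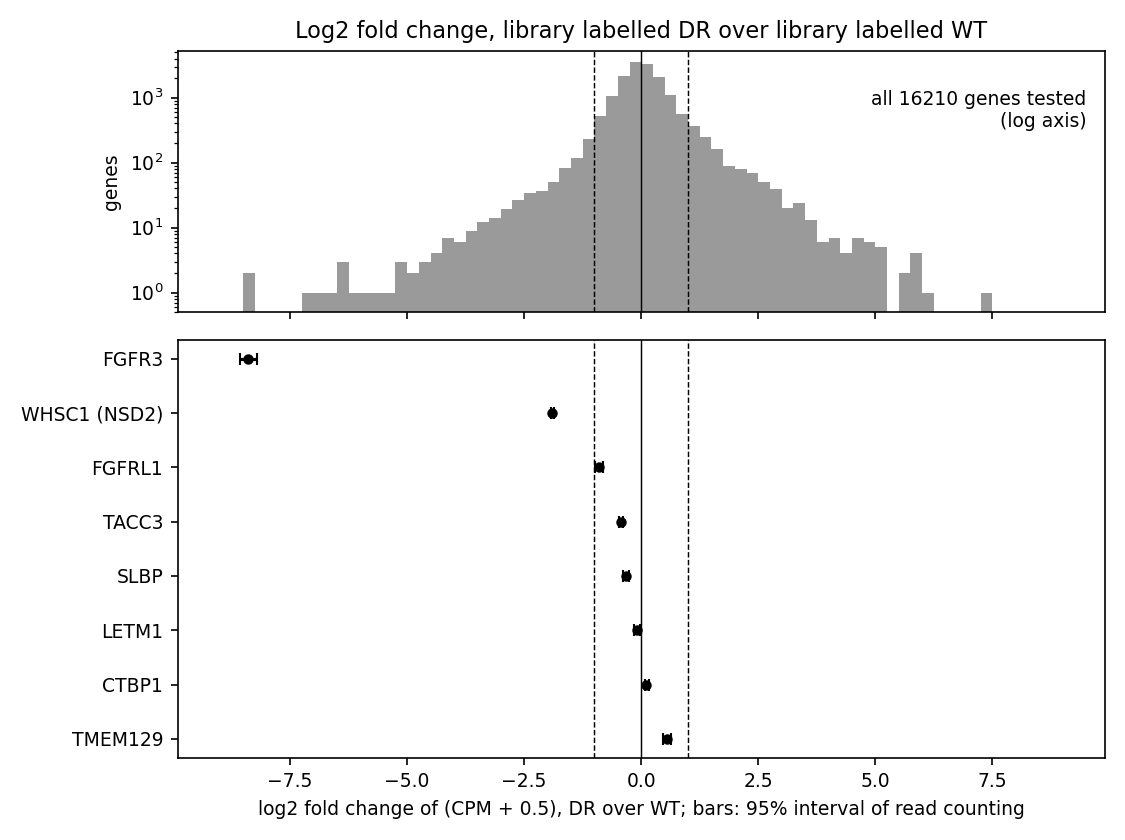
Upper panel: numbers of the 16210 genes tested (log axis) by log2 fold change of the DR library over the WT library. Lower panel: log2 fold change of each of the 8 genes with its 95% interval of read counting. Dashed lines mark -1 and 1. FGFR3 (-8.40) lies at the far left of the distribution and WHSC1 (-1.90) beyond the left dashed line, while the other 6 genes lie between -0.90 and 0.55.

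FGFRL1 (NCBI Gene 53834), which resembles the FGF receptors outside the cell but has no kinase domain, had 1716 reads in the DR library and 2027 in the WT library. This was 30.9 and 58.1 CPM, a log2 fold change of -0.90 (-0.99 to -0.81), 1.88-fold higher in the WT library. Its difference had the direction of that of FGFR3, at a far smaller size.

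TACC3 (NCBI Gene 10460), which helps stabilise the microtubules of the mitotic spindle and lies next to FGFR3, had 10094 and 8603 reads in the DR and WT libraries. Its levels were 181.7 and 246.8 CPM (log2 fold change -0.44, counting interval -0.48 to -0.40). TACC3 was thus abundant in both libraries, at percentiles 92.9 and 94.8 per kilobase, whereas its neighbour FGFR3 was at percentiles 23.8 and 98.9. SLBP (NCBI Gene 7884), which binds the stem-loop at the end of histone mRNAs, had 6456 and 5082 reads, or 116.2 and 145.8 CPM. Its log2 fold change was -0.33 (-0.38 to -0.27).

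LETM1 (NCBI Gene 3954), a protein of the inner mitochondrial membrane that takes part in ion exchange, lies between FGFR3 and WHSC1. It had 5334.62 and 3569.35 estimated reads in the DR and WT libraries, or 96.0 and 102.4 CPM. The log2 fold change was -0.09 (-0.15 to -0.03), so that the gene between the 2 members past the threshold was at nearly the same level in both libraries. This value was the smallest in size among the 8 genes, though its counting interval overlapped in size with that of CTBP1 (0.11, 0.07 to 0.16). Relative to LETM1, per kilobase, WHSC1 stood at 1.91 in the DR library and 6.67 in the WT library, and FGFR3 at 0.0431 and 15.7.

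CTBP1 and TMEM129 were the members higher in the DR library. CTBP1 (NCBI Gene 1487), a corepressor of transcription, had 11436.37 and 6637.47 estimated reads, or 205.8 and 190.4 CPM, with a log2 fold change of 0.11 (0.07 to 0.16). TMEM129 (NCBI Gene 92305), a ubiquitin ligase of the endoplasmic reticulum membrane, had 3998.72 and 1708.82 estimated reads. This was 72.0 and 49.0 CPM, a log2 fold change of 0.55 (0.47 to 0.63), in the direction opposite to those of its neighbours SLBP and TACC3. In RefSeq the span of TMEM129 overlaps that of TACC3, and whether the authors' counting used strand is not given in the sources used here, so the split of reads between these 2 genes is uncertain. Counts were fractional for 4 of the 8 members, WHSC1, LETM1, TMEM129 and CTBP1, and how reads shared between genes were divided is not given in those sources either. RNA genes whose RefSeq spans overlap WHSC1 (SCARNA22), CTBP1 (CTBP1-AS and CTBP1-DT) and TACC3 (LOC112268460) have no entry of their own in the table, so reads from them could be counted with these members.

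In the WT library the order of levels per kilobase, from the top, was FGFR3, WHSC1, TACC3, SLBP, CTBP1, LETM1, FGFRL1 and TMEM129. LETM1 (19.3), FGFRL1 (18.4) and TMEM129 (18.2) could not be ordered there, since the counting interval of each overlapped that of the next. In the DR library the order was TACC3 (64.6), CTBP1 (60.9), SLBP (51.9), WHSC1 (34.6), TMEM129 (26.7), LETM1 (18.1), FGFRL1 (9.79) and FGFR3 (0.782), with no overlap of neighbouring intervals. FGFR3 went from the top of the list in one library to its foot in the other, and was the sole member under the median of all genes tested (6.46 and 6.40 in the DR and WT libraries) in either library.

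**Figure D2:**
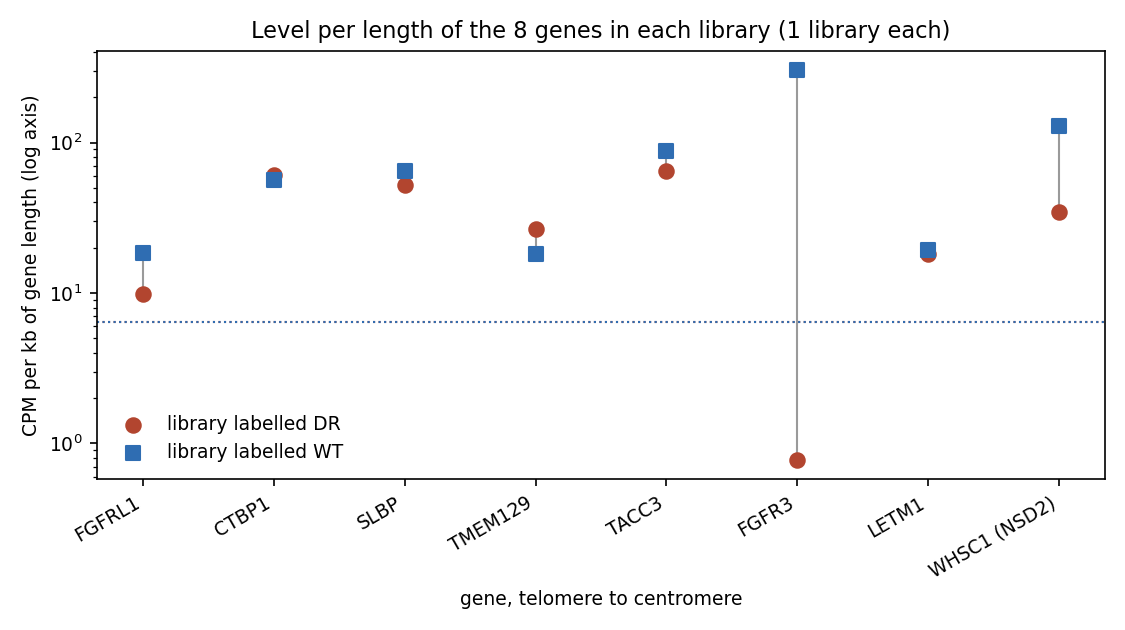
Level of each of the 8 genes in CPM per kilobase of gene length (log axis) in the DR library (circles) and the WT library (squares), 1 library each, in order from telomere to centromere. Dotted lines, nearly on top of each other, mark the median of all genes tested in each library. FGFR3 spans 0.782 to 302.7, and the symbols of LETM1 and CTBP1 nearly coincide.

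The neighbourhood was then followed gene by gene, in RefSeq order from the telomere. Among the 27 genes tested from the telomere up to FGFR3, the median log2 fold change was -0.05, with 14 genes below 0. Among the 24 genes tested from LETM1 to ADRA2C, the last of them LRPAP1, it was -0.23, with 17 below 0. The 531 genes tested on the rest of chromosome 4 had a median of -0.19, and all genes tested 0.01. Medians of whole chromosomes, the X chromosome and the autosomes, ran from -0.22 (chromosome 14) to 0.19 (chromosome 21). Without FGFR3 and without WHSC1 the medians of the 2 stretches were -0.02 and -0.22.

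Past the threshold on the telomere side were ZNF595, a zinc finger gene, and FGFR3, both lower in the DR library, and SPON2, a secreted matrix protein, higher there. ZNF595, first in the order, had 85 and 1368 reads in the DR and WT libraries (log2 fold change -4.29, counting interval -4.54 to -4.04). It belongs to a family of similar genes, and its counts are uncertain for that reason. SPON2 had 197 and 40 reads (1.30, 0.92 to 1.66), and it was no longer past the threshold with a pseudocount of 5 CPM. From LETM1 on, WHSC1 was the sole gene past the threshold. Next to it, NELFA, a subunit of a factor that holds RNA polymerase in pause, had 2599 and 1803 reads and a log2 fold change of -0.14. ADD1, a protein of the membrane skeleton and among the most abundant genes of this stretch per kilobase, had 8895 and 8560 reads (-0.62). The differences of FGFR3 and WHSC1 were thus not shared in size by the genes beside them. LETM1 (-0.09), TACC3 (-0.44) and NELFA (-0.14) were lower in the DR library too, all within the threshold.

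**Figure D3:**
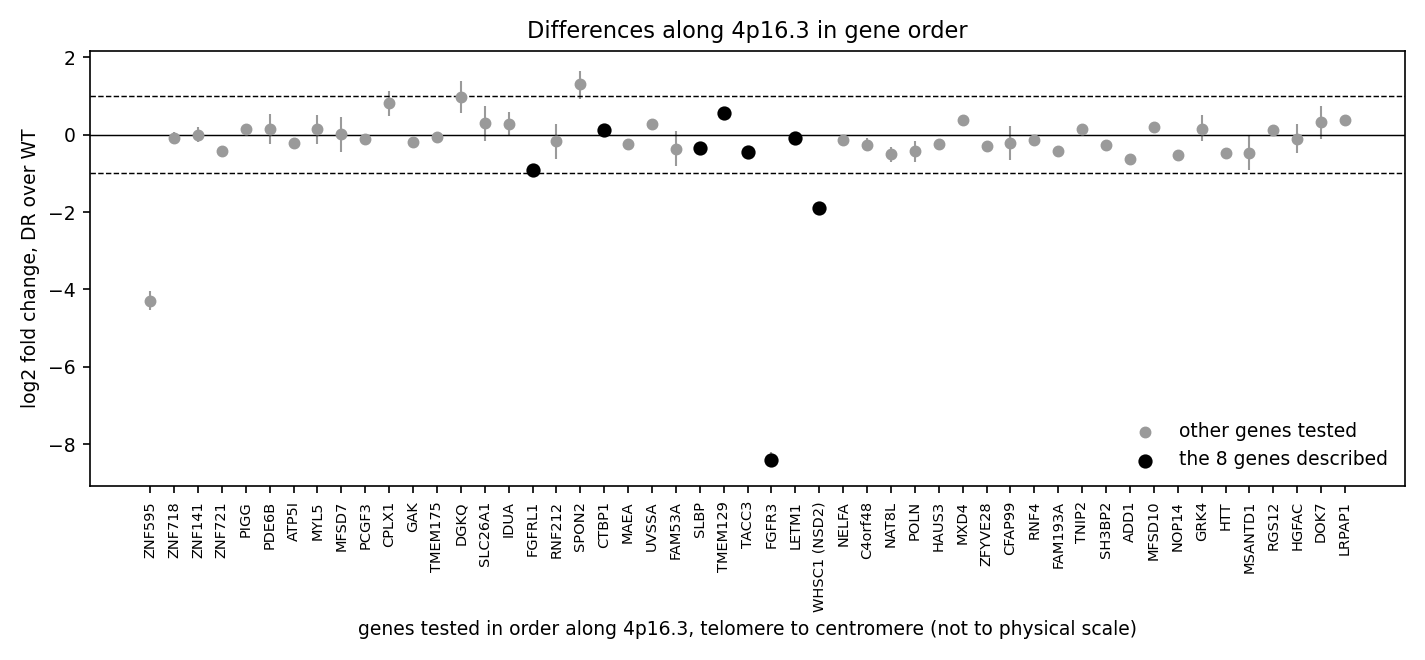
Log2 fold change (DR library over WT library) of each gene tested, in order along the end of the short arm of chromosome 4 from telomere to LRPAP1, spaced by gene order and not by distance. Grey bars are 95% intervals of read counting, black points the 8 genes described and dashed lines -1 and 1. FGFR3 (-8.40), ZNF595 (-4.29) and WHSC1 (-1.90) lie under the lower line, and LETM1 (-0.09), between FGFR3 and WHSC1, lies near 0.

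On the partner chromosome of the translocation, 19 genes of 14q32.33, the band of the immunoglobulin heavy chain locus, were tested. Their median log2 fold change was -0.44, against -0.22 for chromosome 14 and 0.01 for all genes tested. PLD4, a nuclease of endolysosomes, had 3004 and 11819 reads in the DR and WT libraries (-2.64), and AHNAK2, a large scaffold protein, 115 and 366 (-2.10). CRIP1, a LIM domain protein, had 2779 and 653 reads (1.39). The most abundant of the list per kilobase was CRIP1 in the DR library (104.2 CPM per kilobase) and PLD4 in the WT library (167.3). TMEM121 had 185 reads in the DR library and 1 in the WT library, a ratio of 116.1 with a counting interval of 20.6 to 4609.3. In this list 2 genes were lower and 2 higher past the threshold, against 4.16% and 7.48% of all genes tested, and with a pseudocount of 5 CPM 2 were lower and 1 higher.

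The other FGF receptor kinases, FGFR1, FGFR2 and FGFR4, had the opposite direction to FGFR3. FGFR1 had 461 reads in the DR library and 80 in the WT library (8.30 and 2.29 CPM, log2 fold change 1.65, 1.36 to 1.95). FGFR2 had 672 and 163 reads (12.1 and 4.68 CPM, 1.28, 1.05 to 1.52), and FGFR4 981 and 210 (17.7 and 6.02 CPM, 1.48, 1.27 to 1.68). These 3 kinase receptors, with the same ligand family as FGFR3, were low in both libraries. Together FGFR1 to FGFR4 summed to 41.4 CPM in the DR library and 1315.4 CPM in the WT library. FGFR3 gave 8.13% (exact binomial interval 7.04 to 9.32) of their reads in the DR library and 99.0% (98.9 to 99.1) in the WT library. The co-receptors KL and KLB, which bind the endocrine FGFs, had 3 and 15 reads and 129 and 102 reads, with log2 fold changes of -0.75 and -0.28. Of the 7 genes of this list, 3 were at least 2-fold higher in the DR library, against 7.48% of all genes tested. FGFR3, which was chosen on this contrast, was the 1 at least 2-fold lower, against 4.16%. The median of the list was -0.28. With a minimum of 50 reads, which left out KL, the median turned to 0.50. With a pseudocount of 5 CPM in place of 0.5, 1 gene was at least 2-fold higher, and with 0.1 CPM 2 were at least 2-fold lower.

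Of the 22 FGF ligands listed, 10 were tested, with a median of 0.13. Past the threshold were 2 higher and 2 lower, against 7.48% and 4.16% of all genes tested. With a pseudocount of 5 CPM 0 were past it in either direction, and with a minimum of 50 reads the median turned to -0.12. FGF13, an intracellular member of the family, had 902 and 244 reads in the DR and WT libraries (1.16). It was the most abundant per kilobase in the DR library (6.65 CPM per kilobase). In the WT library FGF13 stood at 2.87 CPM per kilobase, under FGF17 (4.19) and FGF9 (3.10). FGF2, the basic form that activates several receptors, had 219 and 40 reads (1.43). FGF17, a secreted ligand, had 185 and 347 reads (-1.45), and FGF12, like FGF13 an intracellular member, 53 and 92 (-1.11). In the WT library the highest level of a tested ligand, 4.19 CPM per kilobase for FGF17, was far below the 302.7 of FGFR3. In the DR library FGF13 (6.65) stood above FGFR3 (0.782).

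The 23 genes of signalling next to the receptor had a median log2 fold change of -0.03. Of them 0 were past the threshold upward and 1 downward, against 7.48% and 4.16% of all genes tested. That gene was SHC1, an adaptor between receptor kinases and RAS, with 11712 and 15183 reads in the DR and WT libraries (-1.05, -1.08 to -1.01). MAP2K2, the other of the 2 most abundant genes of this list per kilobase and a kinase of the MAP kinase cascade, had 9641 and 4470 reads (0.43). The remaining 21 genes, among them the FGF receptor adaptor FRS2 (0.01), lay within the threshold.

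Of 16 feedback and early response genes of this signalling, 7 were at least 2-fold lower in the DR library and 1 at least 2-fold higher. Their median log2 fold change was -0.48, against 0.01 for all genes tested, of which 4.16% were lower and 7.48% higher past the threshold. The median was -0.28 with a pseudocount of 5 CPM, which left 4 genes lower and 0 higher, and -0.86 with a minimum of 50 reads, while a pseudocount of 0.1 CPM gave 2 higher. FOS, an immediate early transcription factor, had 548 and 3846 reads in the DR and WT libraries (-3.42). The sprouty inhibitors SPRY2 and SPRY1 had 19 and 128 reads (-2.31) and 402 and 774 (-1.55). The MAP kinase phosphatases DUSP4 and DUSP6 had 6080 and 13142 reads (-1.78) and 1993 and 2935 (-1.22). DUSP5, another such phosphatase, had 16640 and 5653 reads (0.88), within the threshold and in the opposite direction. It was the most abundant gene of the list per kilobase in the DR library (117.7 CPM per kilobase). In the WT library DUSP4 (66.0) stood above DUSP5 (63.7). EGR1, an immediate early factor like FOS, had 149 and 31 reads (1.20), so that these 2 early genes lay on opposite sides. ETV4 (0.05) and ETV5 (-0.10), transcription factors of the same pathway, were at nearly the same level in both libraries.

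**Figure D4:**
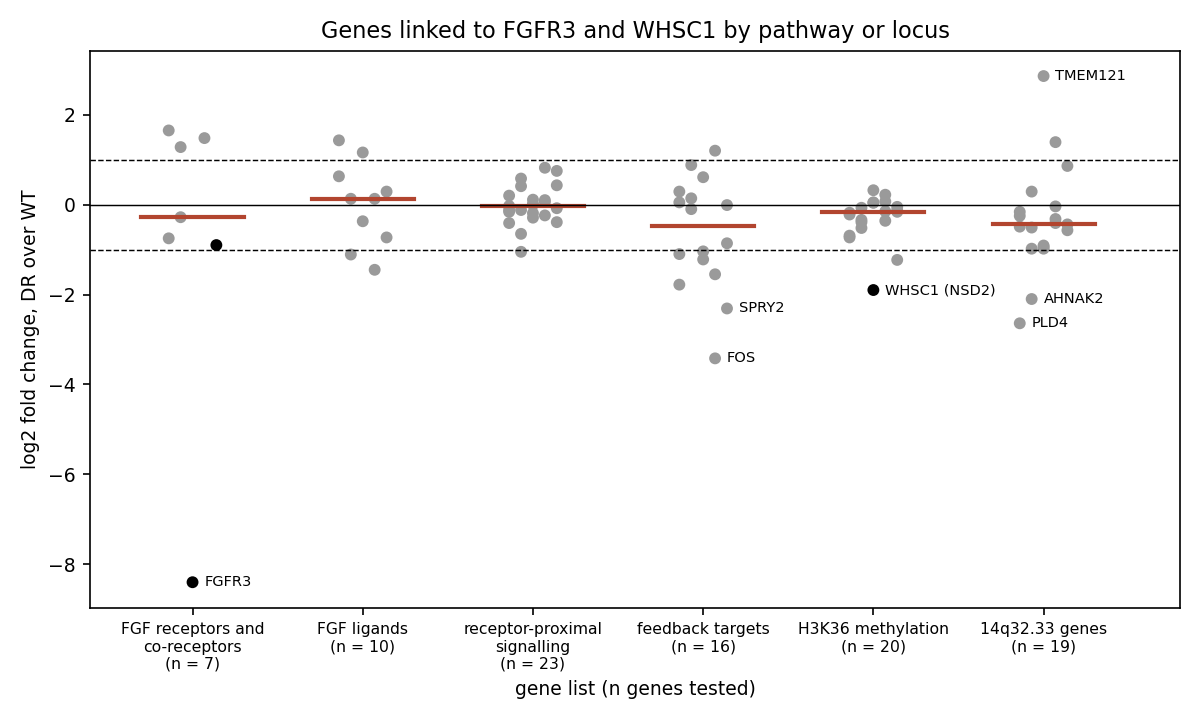
Log2 fold change (DR library over WT library) of each gene tested in 6 lists linked to FGFR3 and WHSC1 by pathway or locus. Black points are members, grey points other genes, red lines list medians and dashed lines -1 and 1. FGFR3 (-8.40) lies far under the other genes of the FGF receptor list, of which FGFR1, FGFR2 and FGFR4 lie above the upper line, and WHSC1 (-1.90) is the lowest of the H3K36 list.

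WHSC1 was also set beside 19 other genes listed with methylation of histone H3 lysine 36 (H3K36). The list holds genes that write, remove or read this methylation, and EZH2. Of the 20, 2 were at least 2-fold lower in the DR library and 0 at least 2-fold higher, against 4.16% and 7.48% of all genes tested. The median log2 fold change was -0.17, against 0.01 for all genes tested. The first of the 2 was WHSC1 itself, which was chosen on this contrast. The second was ZMYND11, a reader of this mark, with 2634 and 3894 reads in the DR and WT libraries (-1.23, -1.30 to -1.16). The closest relatives of WHSC1, NSD1 and WHSC1L1 (NSD3), had 5943 and 3635 reads (0.04) and 4064 and 2840 reads (-0.15). SETD2, which adds the last methyl group, had 7801 and 5487 reads (-0.16). MORF4L1, a reader and the most abundant of the list per kilobase in both, stood at 135.3 and 153.4 CPM per kilobase in the DR and WT libraries. WHSC1, at 34.6 and 128.8, was next to MORF4L1 in the WT library. In the DR library WHSC1 was well under MORF4L1, and also under EZH2 (48.3) and MSH6 (43.2).

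For the other members, none of the partners and relatives named here was past the threshold, against 11.6% of all genes tested in either direction. The 5 genes set beside TACC3, its relatives TACC1 (-0.56) and TACC2 (0.05), its spindle partners CKAP5 (-0.30) and CLTC (-0.23) and the kinase AURKA (-0.56), had a median log2 fold change of -0.30. The 10 genes of histone mRNA processing set beside SLBP ranged from -0.70 for ERI1, an exonuclease of histone mRNA ends, to 0.23 for LSM11, with a median of -0.08. Between them lay LSM10 (-0.06), CPSF3 (-0.09), CPSF2 (-0.51), SYMPK (0.15), CSTF2 (-0.36), ZNF473 (-0.29), CASP8AP2 (-0.06) and NPAT (-0.06).

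Set beside CTBP1 were 10 genes of its corepressor complexes, with a median log2 fold change of -0.06. They ranged from RCOR1 (-0.94), a scaffold of such a complex, and ZEB1 (-0.88), a repressor that recruits CTBP1, to ZEB2 (0.34), which had 64 and 28 reads. The relative CTBP2 (-0.02), with 231 and 147 reads, and KDM1A (-0.11), EHMT1 (0.09), EHMT2 (0.14), HDAC1 (0.07), HDAC2 (-0.39) and CDYL (-0.34) lay between. Beside LETM1, the relatives LETM2 (0.15) and LETMD1 (0.36) and the mitochondrial calcium genes MCU (-0.40), MICU2 (-0.07) and SLC8B1 (-0.92) lay within the threshold. Beside TMEM129, the genes of protein degradation from the endoplasmic reticulum DERL1 (0.29), DERL2 (-0.01), VCP (0.27), UBE2J2 (-0.04), UBE2K (-0.83) and SEL1L (-0.12) had a median of -0.03.

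To see how many genes share the pattern of each member, log2 fold changes were compared over the 2 libraries among the 10205 other genes at 10 CPM or more in either. Within 0.1 of FGFR3 lay 1 gene, within 0.1 of WHSC1 21 (0.206%), and within 0.1 of FGFRL1 245 (2.40%). For the other members the number ran from 581 for TMEM129 to 1963 for LETM1. The 5 genes nearest to FGFR3 were MAGEC1 (log2 fold change -8.41), CTAG1B (-7.13), CTAG2 (-6.90), MAGEA4 (-6.75) and MAGEA3 (-6.48), all cancer-testis antigens of the X chromosome. MAGEC1 had 8 reads in the DR library and 7620 in the WT library. CTAG1B had 0 and 2427.18 reads, so its ratio has only a bound, at least 1289.4-fold lower in the DR library. All 5 reached 10 CPM in the WT library only, with DR levels from 0 (CTAG1B) to 0.738 CPM (MAGEA3). At such levels the pseudocount shapes the log2 fold change. Without it, WT levels were 1518.1-fold higher for MAGEC1, 435.5 for MAGEA4, 325.1 for CTAG2 and 149.1 for MAGEA3, against 387.0 for FGFR3. Nearness to FGFR3 is thus given for this pseudocount only. The families of these antigens have near-identical copies, so their counts are uncertain. Per kilobase, these genes stood in the WT library at levels from 41.0 (MAGEA4) to 99.8 (CTAG2), under the 302.7 of FGFR3.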

How the data were processed

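The authors deposited estimated counts per gene, not scaled for library size, in 1 table of 18930 genes that also holds gene lengths and the authors' own log2 ratios, p-values and q-values, which were not used. Per the labels, the submitters' processing notes name Bowtie 0.12.2 and hg19. The counting tool, annotation and use of strand are not given in the sources used here. For 663 genes there is no count, and 9108 have fractional counts.

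Counts were rounded and scaled by TMM (factors 1.01 for DR and 0.988 for WT, edgeR 4.0.16, R 4.3.3). Genes under 10 reads over both libraries (2057) were left out. Log2 fold changes are of CPM plus 0.5. With 1 library per group a quasi-likelihood fit has no residual degrees of freedom, and no test was run. Intervals are at 95%, Clopper-Pearson on the DR share of a gene's reads for fold changes and exact Poisson for levels (SciPy 1.17.1). No molecular identifiers are named for the reads, so intervals and floors cover counting error only. The floor of 3 reads is 0.0540 CPM (DR) and 0.0861 CPM (WT). RefSeq (GRCh38.p14), matched by NCBI Gene ID for 18583 genes, gave gene order, names and promoter windows. The steps were tested on simulated data. Alternatives were DESeq2 1.42.0 size factors, library totals, pseudocounts of 0.1 and 5 CPM, unrounded counts, no filter, at least 50 reads and a log2 threshold of 2.

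Named genes are the 8 members, genes of lists of at most 10, and in longer lists those past the threshold (up to 5 a direction, at 1 CPM or more in either library) and the 2 most abundant per kilobase. FRS2, ETV4, ETV5, NSD1, WHSC1L1, SETD2 and NELFA were chosen after their values were seen. One listed gene is not reported here. The members and lists were chosen with earlier results of these data known.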

Additional observations from a re-analysis of the deposited data

How the results depend on the processing

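Each of the 8 genes kept its direction with DESeq2 size factors, library totals, both other pseudocounts and unrounded counts, the alternatives that recompute single genes. Under these, and without a filter or with at least 50 reads, 2 members were at least 2-fold lower in the DR library. At a log2 threshold of 2, 1 member, FGFR3, was lower, among 339 genes higher and 189 lower in all. A pseudocount of 5 CPM gave FGFR3 a log2 fold change of -7.29, since it outweighs the few reads of the DR library. It gave 423 genes higher and 333 lower past the 2-fold threshold, and a median of -0.13 from LETM1 to ADRA2C. Library totals in place of TMM gave WHSC1 -1.86. Of 45 values of the gene lists, 10 moved with 5 CPM, 4 with 0.1 CPM, 2 with library totals and 2 with at least 50 reads. No paired analysis was possible because each group holds a single library, and no replicate could be left out. Depth limits genes with few reads, such as KL and TMEM121, most.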
